A study of Galdieria sulphuraria with 9 samples.

Results

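The second cold shift of a temperature timeline was followed in the unicellular red alga *Galdieria sulphuraria*, from sampling H-46, at the end of 48 h at 46 °C, to sampling C-28.2, at the end of 48 h at 28 °C. The libraries were chosen by their sampling label, which gave 4 of the 9 RNA-seq libraries of the series, from cultures A and C on each side. All cultures were wild-type strain 074W, grown separately without organic carbon (photoautotrophically) in 2xGS medium under constant light and shaking. They had been sampled after 2 weeks at 42 °C (H-42, cultures B and C) and then after 48 h at 28 °C (C-28.1, cultures A, B and C) before they were warmed to 46 °C, so every value at 46 °C comes from cells that had already been through a first cold period. No culture was kept at 46 °C in parallel, and elapsed time, culture age and temperature cannot be told apart within the shift. Temperature was the only treatment, and the cultures were the replicates, 2 on each side of the comparison.

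*G. sulphuraria* lives in hot and acidic springs, where it grows by photosynthesis and can also live on a wide range of sugars, polyols and organic acids. In algae and other organisms, cooling slows enzymes and ribosomes, stiffens membranes and stabilises the base pairing of RNA. Genes of ribosome assembly, RNA binding, fatty acid desaturation and carbon use are therefore commonly examined when cells are moved between temperatures. Bulk libraries measure the share of each transcript, so less RNA per cell and fewer cells with a transcript cannot be told apart.

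Reads had been counted on 6538 genes, with totals of 4389066 and 4709730 in H-46 and of 5261373 and 5396826 in C-28.2 (culture A first). Levels below are CPM (read counts scaled to a common library total) after scaling with the trimmed mean of M-values (TMM). Among the 4 libraries, 98 genes had no count. The A and C libraries of H-46 differed by a root mean square of 0.687 on the log2 scale and those of C-28.2 by 0.627.

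In the second cold shift, 354 genes rose and 283 fell among the 6264 tested (5.65% and 4.52%, together 637 genes or 10.2%). A gene was called when its Benjamini-Hochberg adjusted p was below 0.01 and its change was more than 2.5-fold in edgeR's quasi-likelihood test, fitted on all 9 libraries with a term for each sampling. At an unadjusted p below 0.05, 2760 genes differed. The median change of the called genes was 1.82 on the log2 scale in absolute size, and the median of all tested genes was -0.03. More than 4-fold rises were seen in 129 called genes and more than 4-fold falls in 120, and the counts past 16-fold were 15 and 20.

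The rearrangement moved a large part of the counted RNA. The risen genes held 4.92% (culture A) and 5.25% (C) of all counts at 46 °C, and 20.6% and 20.3% at 28 °C. The fallen genes went from 15.8% and 14.8% to 2.89% and 2.72%. These shares describe the genes that were called and carry no test of their own.

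Every called gene moved in the same direction in cultures A and C, and for all 637 the H-46 and C-28.2 libraries did not overlap. Non-overlap was also found in 58.0% of all tested genes, and the same direction in both cultures in 79.3%. Across the tested genes, the change in culture A had a Pearson r of 0.81 and a Spearman rho of 0.77 with the change in culture C, which is a description across genes that share 4 libraries. The change was past 2.5-fold in each culture separately for 485 of the called genes. Of the called genes, 346 changed more in culture A and 291 in culture C.

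**Figure D1:**
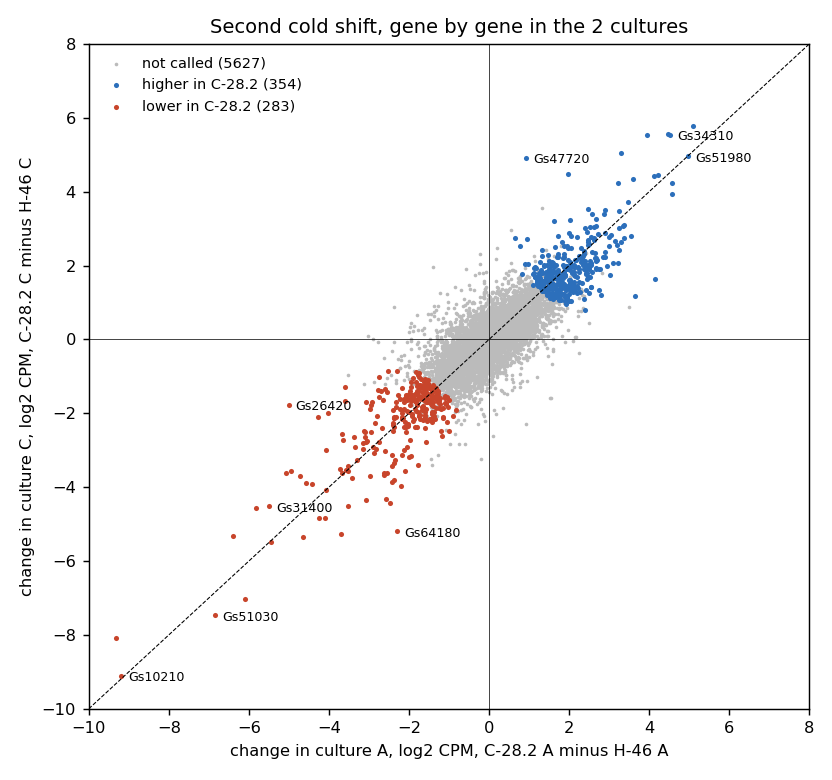
Change of each tested gene in culture A (x axis) and culture C (y axis), as the log2 CPM of C-28.2 minus that of H-46 with a prior count of 2, where blue and red points are the 354 and 283 called genes, grey points are the others and the dashed line marks equal change. The called genes lie in the upper right and lower left parts of the plot only, and Gs47720, Gs26420 and Gs64180 lie furthest from the line among them.

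The call rests in part on the libraries of the other samplings, which share the estimate of the spread. Libraries of those samplings lay closer together, with root mean square log2 differences of 0.275 in H-42 and 0.282 to 0.439 in C-28.1. The values were 0.687 in H-46 and 0.627 in C-28.2, so the shared estimate may be too small for this comparison, which was not tested. In a fit to the 4 libraries alone, 141 genes were called, all among the 637, and in a fit to the same 4 libraries with culture as a block 748 were called, 627 of them shared. With 2 against 2, an exact permutation test of a single gene cannot go below a two-sided p of 0.333, so single genes are reported with the edgeR values.

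Among genes with at least 10 counts in each of the 4 libraries, the largest falls were in genes without a product name. Gs10210 had 3236 CPM (culture A) and 6555 CPM (culture C) in H-46 against 5.23 and 11.6 CPM in C-28.2; values below follow the same order of cultures. This was a log2 fold change of -9.19 (SE 0.56, edgeR adjusted p = 1.04e-05). Gs51030 went from 4429 and 4609 CPM to 38.2 and 25.8 CPM (log2 fold change -7.14, SE 0.37, edgeR adjusted p = 3.59e-06). For each of these genes the lowest H-46 library was far above the highest C-28.2 library. Gs31400, Gs11780 and Gs50510, also without a named product, fell with log2 fold changes of -5.14, -5.11 and -4.73. The next gene along the genome after Gs10210 and the next after Gs51030 fell as well (log2 fold changes of -5.82 for Gs10220 and -2.58 for Gs51040). Gs10220 is below the minimum of 10 counts in each library, so its fitted value is less certain than those ranked above. Genes below that minimum are not ranked here. Some had larger fitted changes, among them Gs00050, with 0 counts in both H-46 libraries, and Gs63100, with 0 counts in both C-28.2 libraries, whose fitted values depend on the prior count.

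The largest rises under the same minimum of counts were likewise in unnamed genes. Gs34310 went from 53.4 and 67.7 CPM in H-46 to 1241 and 3152 CPM in C-28.2 (log2 fold change 5.18, SE 0.44, edgeR adjusted p = 3.88e-05). Gs51980 had 372 and 383 CPM in H-46 and 11726 and 11936 CPM in C-28.2, and here the cultures lay close together on each side. Gs25280 rose from 124 and 206 to 1929 and 9477 CPM (log2 fold change 5.11, SE 0.67), with culture C far above culture A at 28 °C. Gs41620, Gs14860 and Gs06500 rose by 4.46, 4.39 and 4.33 on the log2 scale.

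Of the 3 genes with the highest mean level in the 4 libraries, only Gs09270 was called. It fell from 13642 and 23324 CPM to 1596 and 3707 CPM (log2 fold change -2.80, SE 0.43, edgeR adjusted p = 0.000742). The most abundant gene, Gs43630, had 40700 and 58535 CPM in H-46 and 25840 and 40386 CPM in C-28.2 (log2 fold change -0.58, edgeR adjusted p = 0.216), so that the higher C-28.2 library lay just below the lower H-46 library. Gs07490 stood between 25941 and 32457 CPM throughout, with a log2 fold change of 0.13.

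Product names were at hand for 766 of the tested genes, of which 73 rose and 30 fell. They come from tables that the study made from these samples: a table of genes that differ between heat and cold, and tables of genes with alternatively spliced introns. Being named is thus tied to the outcome for the first kind, and group counts of such genes are not independent evidence of their direction. The intron tables were chosen on these samples too. They required a minimum coverage, and part of their introns was listed for splicing that differed between heat and cold. Counts of genes from the intron tables are therefore not free of the outcome either. Of the 680 tested genes with a product name that the intron tables give, 30 rose and 18 fell. In the 4 libraries alone and with a test against the 2.5-fold change itself, the group counts were lower. The 78 genes called in any named group were then 20 and 16, and no rise in amino acid metabolism or splicing and no fall in transcription was called by either. The groups below were described by counts of members called and by medians, beside 10.2% called and a median of -0.03 over all tested genes.

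**Figure D2:**
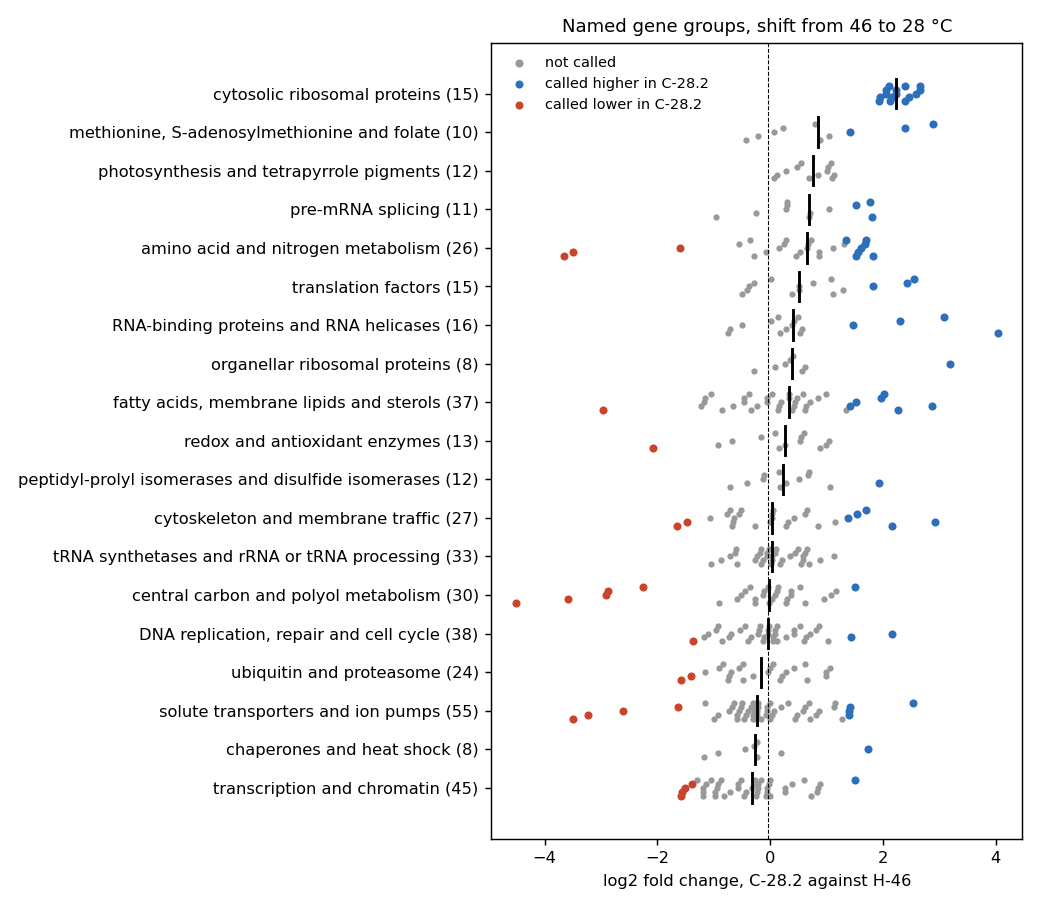
Log2 fold change of C-28.2 against H-46 (x axis) for each tested member of 19 groups of named genes, with the number tested in parentheses, a thick bar at each group's median and a dashed line at the median of all genes. Cytosolic ribosomal proteins lie between 1.92 and 2.66, while transcription and chromatin genes have a median of -0.32.

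Genes of protein synthesis were among the risen genes. All 15 named cytosolic ribosomal proteins, the protein parts of the 40S and 60S ribosomal subunits, rose, with log2 fold changes from 1.92 to 2.66 and a median of 2.23. All 15 are named only in the study's own list of changed genes, so their shared direction is a property of how they came to be named as well. All 15 calls were kept in DESeq2 and with culture as a block in the 4 libraries, but 2 were kept in the 4 libraries without the block and 3 when the test was made against the 2.5-fold change itself (glmTreat). Their summed share of counts went from 0.344% and 0.477% in H-46 to 1.75% and 1.90% in C-28.2.

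The 60S protein L37e (Gs50890) had 174 and 197 CPM in H-46 and 1071 and 1270 CPM in C-28.2 (log2 fold change 2.66, SE 0.25, edgeR adjusted p = 6.13e-05). L30e (Gs04730) went from 162 and 293 CPM to 1198 and 1524 CPM. The small-subunit protein S12e (Gs57310) went from 323 and 448 CPM to 1661 and 2358 CPM. In each case both 28 °C libraries were several times above both 46 °C libraries, and culture A held the lower value on each side. L38e (Gs37250) spread more, from 49.8 and 165 CPM to 473 and 880.5 CPM, and its call was lost without C-28.2 C (log2 fold change 2.14, edgeR adjusted p = 0.0161).

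Ribosomal proteins of the organelles did not rise as a group. Of 8 tested, 1 was called, with a median of 0.38 for the group (2 were called without H-46 C), and 6 of the 7 others had log2 fold changes between 0.08 and 0.62. The called member was 30S ribosomal protein S1 (Gs56500), an RNA-binding protein of bacterial-type ribosomes, with 336 and 583 CPM in H-46 and 3402 and 4930 CPM in C-28.2 (log2 fold change 3.18, SE 0.33, edgeR adjusted p = 0.000102). Its product name does not give the organelle.

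Among 15 tested translation factors, 3 were called higher and none lower, with a median of 0.51 and a negative change in 4. The elongation factor EF-2 genes Gs54870 and Gs63370 were not called (log2 fold changes of 0.01 and 0.51). The elongation factor EF-1 alpha (Gs19840), which brings aminoacyl-tRNA to the ribosome, went from 1038 and 507 CPM to 5795 and 3302 CPM (log2 fold change 2.56, SE 0.39, edgeR adjusted p = 0.000721). The initiation factor eIF-5A (Gs17370), which helps ribosomes past difficult peptide bonds, went from 349 and 453 CPM to 2217 and 2094 CPM. The TCTP-like protein (Gs64140) had 11.2 and 32.6 CPM in H-46 against 67.6 and 87.1 CPM in C-28.2, close to the threshold (edgeR adjusted p = 0.00958). Its call was lost under another scaling, the DESeq2-type RLE size factors (adjusted p = 0.0103), and without any of 7 libraries in turn, with log2 fold changes from 1.27 to 2.01. The calls were all outside the 11 tested members that the intron tables name.

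RNA-binding proteins rose in 4 of 16 tested members of that group and fell in none, with a median of 0.40. The glycine-rich RNA binding proteins, a family whose plant members are known for cold induction, included the steepest rise of any named product. Gs13830 went from 85.7 and 97.9 CPM in H-46 to 1032 and 2000.4 CPM in C-28.2 (log2 fold change 4.05, SE 0.40, edgeR adjusted p = 9.06e-05). Its relative Gs37390 started higher, at 302 and 416 CPM, and reached 1255 and 2308 CPM. An RNA-binding protein of unspecified kind (Gs32310) went from 104 and 290 CPM to 990 and 2352 CPM. The 28 °C libraries of these 3 genes were all above their 46 °C libraries, as for every risen gene, with culture C the higher on each side. Poly(A) binding protein (Gs17430), which coats the tails of mRNA, rose from 406 and 342 CPM to 1149 and 927 CPM. The poly(A) binding genes Gs29950 and Gs47930 were not called (log2 fold changes of 0.57 and 0.38). The calls were all outside the 12 tested members from the intron tables.

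Of 11 tested pre-mRNA splicing genes, 3 rose and none fell, with a median of 0.69. The serine- and arginine-rich splicing factor 7 (Gs33180), of a family that marks exons for the spliceosome, had 160 and 143 CPM in H-46 and 530.1 and 528 CPM in C-28.2 (log2 fold change 1.80, SE 0.23, edgeR adjusted p = 0.000283). Splicing factor 2 of the same family (Gs28130) went from 113 and 181 CPM to 335 and 510 CPM. Small nuclear ribonucleoprotein F (Gs28640), part of the ring around spliceosomal RNAs, went from 36.9 and 63.4 CPM to 105 and 237 CPM. Without C-28.2 C the calls of Gs28130 (log2 fold change 1.19) and Gs28640 (1.07) were lost. Both were also lost without H-46 A (1.25 and 1.45), which left 1 called splicing gene either way. Gs33180 and Gs28130 are named only in the study's list of changed genes.

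Enzymes of the methyl cycle rose in 3 of 10 tested genes of methionine, S-adenosylmethionine and folate metabolism, whose median was 0.84. Methionine synthase of the type that uses methyltetrahydropteroyltriglutamate (Gs34920) had 719 and 329 CPM in H-46 and 4574 and 3155 CPM in C-28.2 (log2 fold change 2.88, SE 0.39, edgeR adjusted p = 0.000446). Adenosine kinase (Gs08210), which clears the adenosine that methylation releases, went from 203 and 259 CPM to 1289 and 1137 CPM. Another adenosine kinase, Gs11970, was not called (log2 fold change -0.43). S-adenosylmethionine synthetase (Gs03900), which makes the methyl donor, went from 530.3 and 553 CPM to 1207 and 1698 CPM. The call of Gs03900 was lost without C-28.2 C (log2 fold change 1.16) or H-46 A (1.42, edgeR adjusted p = 0.0107) and under scaling by library totals alone (1.29), which left 2 of the 3 calls. The calls were all outside the 7 members from the intron tables.

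Lipid genes moved in both directions, with 6 rises and 1 fall among 37 tested and a median of 0.34. The omega-6 fatty acid desaturase (Gs25760), which puts a second double bond into membrane fatty acids, had 42.6 and 16.8 CPM in H-46 and 238 and 196 CPM in C-28.2 (log2 fold change 2.87, SE 0.38, edgeR adjusted p = 0.000385). Ketoacyl synthase II (Gs14230), a chain-elongating enzyme of fatty acid synthesis, went from 122 and 88.8 CPM to 598 and 418 CPM. Acetyl-CoA carboxylase (Gs09490), which makes the malonyl-CoA for that synthesis, went from 245 and 189 CPM to 652 and 596 CPM. The fallen member works in the opposite direction: acyl-CoA oxidase (Gs21670), which starts the breakdown of fatty acids, went from 193 and 193 CPM to 18.4 and 30.9 CPM (log2 fold change -2.97, SE 0.31, edgeR adjusted p = 0.000102). Libraries of H-46 and C-28.2 did not overlap for these genes, which was so for all 637 called genes and for 58.0% of all tested genes. Of the 30 tested members from the intron tables, 4 rose and 1 fell. The number of falls was 4 without H-46 C and 2 without either C-28.2 library.

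Amino acid and nitrogen metabolism held 7 rises and 3 falls among 26 tested genes, a share of 38.5%. The risen members included biosynthetic and interconverting enzymes. Glutamate dehydrogenase (Gs36460), which links ammonium to glutamate, went from 71.3 and 58.5 CPM to 301 and 161 CPM (log2 fold change 1.83, SE 0.28, edgeR adjusted p = 0.000824). 3-isopropylmalate dehydrogenase (Gs34040), an enzyme of leucine synthesis, went from 350 and 230.4 CPM to 1063 and 829 CPM. Glutamine synthetase (Gs37790), the most abundant member, had 1969 and 1243 CPM against 3190 and 2652 CPM and missed the threshold (log2 fold change 0.86, edgeR adjusted p = 0.0344). Shikimate kinase (Gs49560), of aromatic amino acid synthesis, fell from 57.0 and 47.4 CPM to 19.6 and 14.6 CPM. Shikimate kinase Gs30830 and the family member Gs02740 were not called (log2 fold changes of 0.53 and -0.36). Of the 21 tested members named in the intron tables, 3 rose and 3 fell.

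The other fallen members of that group stand side by side in the genome. Primary-amine oxidase (Gs49900), which releases ammonium from amines, had 358 and 190.2 CPM in H-46 and 27.0 and 16.3 CPM in C-28.2 (log2 fold change -3.66, SE 0.38, edgeR adjusted p = 0.000102). An amino acid/auxin permease (Gs49920), a membrane carrier for amino acids, went from 198 and 174 CPM to 11.5 and 21.6 CPM. The unnamed gene between them, Gs49910, went from 242 and 186 CPM to 27.0 and 23.6 CPM. For all 3 genes both 28 °C libraries lay far below both 46 °C libraries. Whether these neighbours overlap was not tested.

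Central carbon and polyol metabolism held 5 falls and 1 rise among 30 tested genes, while its median was -0.03. Glycerol dehydrogenase (Gs57960), which oxidises glycerol for entry into central metabolism, had 5607 and 7060 CPM in H-46 and 527 and 526 CPM in C-28.2 (log2 fold change -3.59, SE 0.29, edgeR adjusted p = 2.76e-05). A second glycerol dehydrogenase (Gs57980) went from 642 and 446 CPM to 77.7 and 66.5 CPM. Alcohol dehydrogenase (Gs57970), which lies between them, went from 8288 and 7709 CPM to 1606 and 1751 CPM. In this run of genes the cultures were nearly alike at 28 °C. The putative acetate transporter next to them, Gs57950, belongs to the same run and went from 1292 and 3211 CPM to 250.5 and 228 CPM. How alike the genes of this run are in sequence, and so how many of their reads map to several places, was not tested.

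A glycogenin-like glucosyltransferase (Gs06400), of the family that primes glycogen in animals and fungi, fell from 367 and 152 CPM to 10.6 and 12.0 CPM (log2 fold change -4.52, SE 0.40, edgeR adjusted p = 4.75e-05). NAD-dependent formate dehydrogenase (Gs60980), which oxidises formate to carbon dioxide, fell from 869 and 995 CPM to 189 and 63.5 CPM, more strongly in culture C. UDP-glucose 6-dehydrogenase (Gs58190), which makes a sugar acid for cell wall polymers, was the called rise, from 46.4 and 20.5 CPM to 117 and 71.8 CPM. Its call was lost without any of 7 libraries in turn, with log2 fold changes from 1.03 to 1.50, and under scaling by library totals alone (1.37). Another UDP-glucose 6-dehydrogenase, Gs50150, was not called (log2 fold change 0.12). The summed share of the group went from 2.12% and 2.01% of counts in H-46 to 0.631% and 0.528% in C-28.2. Most of that share lay in Gs57960 and Gs57970, with 27931 and 41291 counts in H-46 A and 2922 and 8909 in C-28.2 A. The group's median was -0.03, so the share does not describe a typical member. Of the group's 25 tested members from the intron tables, none rose and 2 fell. The number of rises in the group was 4 without C-28.2 C and 3 without H-46 A.

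**Figure D3:**
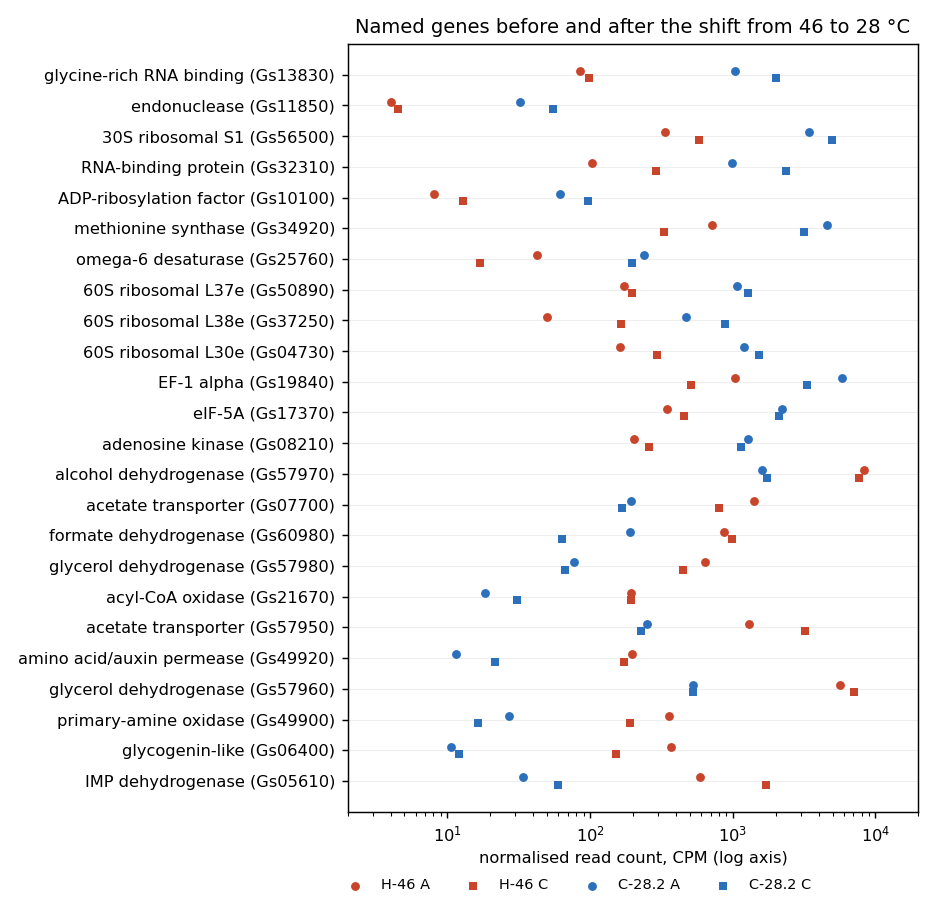
Normalised read count (CPM, log axis) of 24 genes with a product name in the 4 libraries, red for H-46 and blue for C-28.2, circles for culture A and squares for culture C, ordered by log2 fold change. The red and blue symbols do not overlap in any row, as for every called gene. The widest gap between the cultures within a condition is that of L38e at 46 °C (49.8 and 165 CPM).

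The steepest fall with a product name was that of IMP dehydrogenase (Gs05610), which commits purines to guanine nucleotides. It had 590.4 and 1709 CPM in H-46 and 34.1 and 59.2 CPM in C-28.2 (log2 fold change -4.62, SE 0.50, edgeR adjusted p = 0.000117). Culture C was the higher on each side, and the fall was past 16-fold in each culture. An endonuclease (Gs11850) rose from 4.01 and 4.51 CPM to 32.1 and 54.7 CPM, with few counts at 46 °C.

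Solute transporters and ion pumps held 4 rises and 4 falls among 55 tested genes. Besides the permease and Gs57950, the falls were a second putative acetate transporter (Gs07700), from 1413 and 799 CPM to 195 and 167 CPM (log2 fold change -2.61, SE 0.33, edgeR adjusted p = 0.000283), and a transporter of the major facilitator family (Gs29280), from 256 and 242 CPM to 73.5 and 85.9 CPM. The rises were led by an ABC transporter ATP-binding protein (Gs16000), which powers transport with ATP, from 23.9 and 26.9 CPM to 110 and 185 CPM (log2 fold change 2.54, SE 0.28, edgeR adjusted p = 0.000133). Mitochondrial carriers that were not called ran from -0.58 (Gs45200) to 0.81 (Gs38480). The other rises were mitochondrial carriers, Gs34210, Gs42670 and Gs20540, with log2 fold changes of 1.42, 1.40 and 1.39. None of these carriers kept its call without H-46 C (1.21, 1.14 and 1.24), which left 1 called rise, and none kept it under scaling by library totals alone. Gs34210 and Gs20540 were also lost without C-28.2 A (0.93 and 1.29). Without H-46 A, by contrast, 7 transporters were called higher.

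Cytoskeleton and membrane traffic genes held 5 rises and 2 falls among 27 tested. An ADP-ribosylation factor (Gs10100), a small GTPase of vesicle budding, went from 8.03 and 12.9 CPM to 62.0 and 97.5 CPM (log2 fold change 2.93, SE 0.29, edgeR adjusted p = 9.08e-05), and a second one (Gs28810) from 21.5 and 24.8 CPM to 63.1 and 71.4 CPM. Another gene of that name, Gs03620, was not called (log2 fold change -0.26). Cell division control protein 42 (Gs25940), a GTPase that organises actin, went from 25.3 and 42.7 CPM to 129 and 173 CPM. Actin (Gs17630), the filament protein itself, went from 749 and 422 CPM to 2312 and 1509 CPM, and its call was lost without C-28.2 A (log2 fold change 1.38, adjusted p = 0.0173). The Golgi protein GOT1 (Gs57360) rose from 24.3 and 24.4 CPM to 43.4 and 83.6 CPM. The falls were centrin-2 (Gs06410), a calcium-binding protein, and a Ras-family GTPase (Gs49350). These last calls were fragile: that of Gs57360 was lost without any of 7 libraries in turn (log2 fold changes 0.84 to 1.40), that of Gs06410 without any of 5 (-1.69 to -0.87) and that of Gs49350 without any of 7 (-1.65 to -0.97).

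Transcription and chromatin genes leaned the other way. Of 45 tested, 1 rose and 4 fell, the median was -0.32, and 36 had a negative log2 fold change, against 3215 of all 6264 tested genes. The rise was an RNA polymerase primary sigma factor (Gs17390), a promoter-recognition subunit of the bacterial-type polymerase of plastids, from 30.3 and 42.1 CPM to 99.1 and 105 CPM. Another primary sigma factor, Gs35420, was not called (log2 fold change 0.26). A transcription factor (Gs55410) fell from 1591 and 1537 CPM to 534 and 517 CPM (log2 fold change -1.57, SE 0.23, edgeR adjusted p = 0.000612), with the cultures nearly alike on each side. A myb domain-containing protein (Gs56510) and the zinc finger proteins Gs32050 and Gs13970 fell with log2 fold changes of -1.51, -1.39 and -1.56. The calls of Gs17390 (log2 fold change 1.30) and Gs32050 (-1.24) were lost without H-46 A, and that of Gs56510 without C-28.2 C (-1.27). That of Gs13970 was lost without any of 8 libraries in turn (-1.91 to -0.91).

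Photosynthesis and tetrapyrrole pigment genes held 0 calls among 12 tested in edgeR's test (8 at an unadjusted p below 0.05), although all 12 log2 fold changes were positive, from 0.06 to 1.14, with a median of 0.77. The carotenoid protein Gs58800 came close, with 135 and 164 CPM in H-46 and 286 and 323 CPM in C-28.2 (log2 fold change 1.03, edgeR adjusted p = 0.00384), a change below 2.5-fold. With adjusted p alone, Gs58800 and 3 other members would pass. The 2 light-harvesting genes in this group had no count in any library and were not tested. In DESeq2 the group also held 0 calls, and 1 member was called without C-28.2 A, without H-46 A or without H-46 C.

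Among chaperones and heat shock genes, 6 had a negative log2 fold change, against 3215 of all 6264 tested genes, and the median was -0.26. Of 8 tested, prefoldin subunit 2 (Gs17200), which hands unfolded actin and tubulin to chaperonin, rose from 22.7 and 44.5 CPM to 82.4 and 143 CPM (log2 fold change 1.74, SE 0.33, edgeR adjusted p = 0.00265), a call that was lost without C-28.2 C (1.30, adjusted p = 0.0185). The others ran from -1.17 to 0.20. Gs29480, a heat shock transcription gene by its product name, was at -0.93 (edgeR adjusted p = 0.0044), below the 2.5-fold minimum. The most abundant, the chaperonin GroES (Gs07100), had 2245 and 2573 CPM in H-46 and 1606 and 1920 CPM in C-28.2 (log2 fold change -0.45, edgeR adjusted p = 0.173). A DnaJ homolog (Gs53260), a partner of Hsp70 chaperones, had 231 and 175 CPM against 99.8 and 81.0 CPM, below the 2.5-fold minimum (log2 fold change -1.17), and was called without H-46 C (-1.35).

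The remaining groups held few calls. Peptidyl-prolyl isomerases and disulfide isomerases had 1 rise among 12 tested (Gs30690, a folding catalyst, log2 fold change 1.92). Ubiquitin and proteasome genes had 2 falls among 24, the ubiquitin-conjugating enzymes Gs11520 and Gs54980, at -1.58 and -1.41. DNA replication, repair and cell cycle genes had 2 rises and 1 fall among 38, DNA gyrase subunit A (Gs10570, 1.43), Gs25940 again (2.15) and a structural maintenance of chromosome protein (Gs57770, -1.38). Redox and antioxidant enzymes had 1 fall among 13, a glutathione S-transferase (Gs28590, -2.08). The 33 tested tRNA synthetases and rRNA or tRNA processing genes held 0 calls in edgeR's test (11 at an unadjusted p below 0.05) and in DESeq2, with a median of 0.02, and 1 call each without C-28.2 C and without H-46 C. The call of Gs11520 was lost without H-46 C (-1.17) or C-28.2 A (-1.35), that of Gs54980 without H-46 A (-1.17), and that of Gs28590 without H-46 C (-1.23), C-28.2 A (-2.09) or C-28.2 C (-2.04).

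Cultures A and C disagreed most in size, among called genes, for 3 genes without a product name. Gs47720 went from 2.61 to 5.23 CPM in culture A and from 3.28 to 109 CPM in culture C, a log2 fold change of 4.27 (SE 1.03, edgeR adjusted p = 0.00905) that fell to 0.83 without C-28.2 C and kept its call in no fit without 1 library other than that without C-28.2 A. Gs26420 fell from 114 to 3.24 CPM in culture A and from 66.1 to 19.1 CPM in culture C. Gs64180 fell from 7.43 to 1.26 CPM in culture A and from 11.3 CPM to no count in culture C. At 0 counts in a library, the fitted value of Gs64180 (log2 fold change -3.80) depends on the prior count.

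The timeline holds a first cold shift, from H-42 to C-28.1, that shares no library with the second. Of the 354 genes that rose in the second shift, 344 (97.2%) also had a positive change in the first, and of the 283 that fell, 274 (96.8%) had a negative one, against 70.6% of all tested genes with the same sign in each shift. The median change of the risen genes was 1.78 in the second shift and 1.34 in the first, and that of the fallen genes -1.87 and -1.30. These medians lean towards the second shift by the choice of genes, since the second shift chose them.

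**Figure D4:**
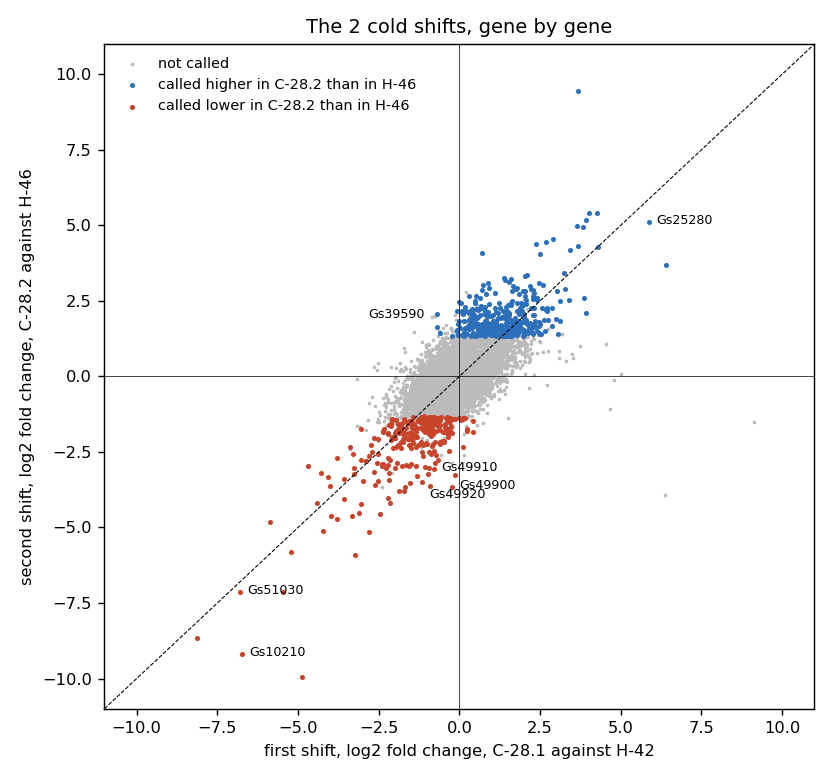
Log2 fold change in the first cold shift, C-28.1 against H-42 (x axis), and in the second, C-28.2 against H-46 (y axis), for all tested genes, with the genes called in the second shift in blue and red and a dashed line at equal change. Most called genes lie in the upper right or lower left part of the plot, while Gs49900, Gs49910 and Gs49920 fell in the second shift and had first-shift values of -0.23, -0.78 and -1.15.

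A direct test of the difference between the shifts in the same model called 0 genes, with 1551 at an unadjusted p below 0.05 and a smallest adjusted p of 0.032. DESeq2 called 131 genes in the same test, and edgeR with culture as a block called 3, namely Gs39590, Gs49900 and Gs49910. Without H-46 C the test called 632 genes, 390 higher and 242 lower in the second shift, and without any other library 0. When 200 genes of simulated libraries were given a 4-fold change, this test recovered 75% of them, and the test of the second shift alone 93%. At a simulated 2.5-fold change, the size used as the minimum for a call, the recovered shares were 24.5% and 47%, so the count of 0 does not show that the shifts were alike.

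The 2 genes with the smallest p in each direction of that difference were chosen by rule. Gs49910 changed by -3.08 in the second shift and by -0.78 in the first, a difference of -2.30 (SE 0.28, edgeR adjusted p = 0.032). Gs49900 differed by -3.43, and its neighbour Gs49920 by -2.34 (adjusted p = 0.0577 each). The levels show where the difference lay: Gs49900 had 50.5 and 53.5 CPM in H-42 and 31.1 to 51.6 CPM in C-28.1, was at 358 and 190.2 CPM in H-46, and was at 27.0 and 16.3 CPM in C-28.2. In the other direction, Gs39590, which has no product name, had 151 and 183 CPM in H-42 and 87.7 to 116 CPM in C-28.1, then 46.6 and 78.6 CPM in H-46 and 175 and 214 CPM in C-28.2 (difference 2.34, edgeR adjusted p = 0.0577). Gs56200, also unnamed, differed by 1.97 (adjusted p = 0.0702).

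The median change of the ribosomal proteins was 2.23 in the second shift and 0.88 in the first, and their summed share of counts was 0.621% and 0.563% in H-42, 1.07% to 1.34% in C-28.1, 0.344% and 0.477% in H-46 and 1.75% and 1.90% in C-28.2. The share was thus lowest in both H-46 libraries and highest in both C-28.2 libraries. No ribosomal protein was called in edgeR's test of the difference. In that test 10 of the 15 had an unadjusted p below 0.05, against 1551 of all 6264 tested genes. For L37e the changes were 2.66 in the second shift and 2.03 in the first (difference 0.63, edgeR adjusted p = 0.239). Others differed more: L30e (2.58 and 0.64, edgeR adjusted p = 0.0706), L38e (2.66 and 0.30, 0.0923) and S12e (2.38 and 0.91, 0.0801).

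Methionine synthase and glycerol dehydrogenase Gs57960 gave other orders. Gs34920 had 660 and 455 CPM in H-42, 4764 to 5845 CPM in C-28.1, 719 and 329 CPM in H-46 and 4574 and 3155 CPM in C-28.2, so that both cold samplings were high. Gs57960 had 6517 and 8589 CPM in H-42, 1090 to 1390 CPM in C-28.1, 5607 and 7060 CPM in H-46 and 527 and 526 CPM in C-28.2, with the lowest values in the second cold sampling. For the glycine-rich protein Gs13830 the H-46 libraries (85.7 and 97.9 CPM) lay below those of H-42 (404 and 408 CPM), and its changes were 4.05 in the second shift and 2.51 in the first (difference 1.54, edgeR adjusted p = 0.107).

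**Figure D5:**
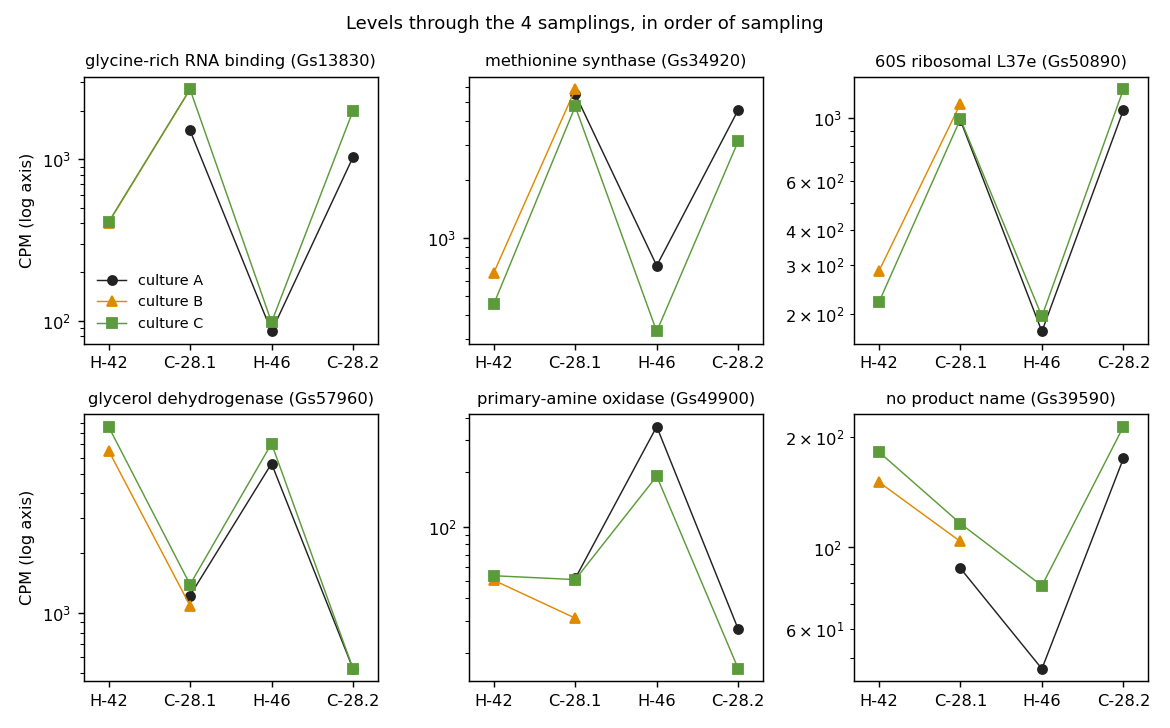
Normalised read count (CPM, log axis) of 6 genes in the 9 libraries, in the order of sampling (x axis), with a line for each culture A, B and C. The glycine-rich protein, methionine synthase and L37e are high in both 28 °C samplings, glycerol dehydrogenase is low in both, and the amine oxidase stands apart at H-46 only.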

How the data were processed

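RNA-seq libraries (Illumina TruSeq, paired-end) were made from each culture and sampling. The authors deposited raw counts, whole numbers of reads per gene, without normalization. Before that, for the splicing analysis at least, Trimmomatic 0.36 had trimmed the reads, STAR 2.5.2a had placed them on the genome, and multiply mapped reads had been discarded. The deposited files are named as STAR's own gene counts, which leave out reads that overlap several genes or map to several places. They hold 1 count column, and the annotation and strand setting are not given in the sources used here, so overlapping and near-identical genes are uncertain.

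Counts of all 9 libraries (4389066 to 8989387 per library) were scaled by TMM. The quasi-likelihood test of edgeR 4.0.16, run with limma 3.58.1 under R 4.3.3, was applied to the 6264 genes that filterByExpr kept. The model had a term for each sampling, and p-values were adjusted over all tested genes. Standard errors are the log2 fold change over the square root of F. Alternatives were DESeq2 1.42.0, RLE factors, library totals, other filters and thresholds, culture as a block, the 4 libraries alone, and leaving out each library. Counts were also simulated independently for each library, at the trend of the fitted dispersion and with no effect of culture. On them the main test made 0 false calls and the test of the difference 0 or 1. Deviations shared within a culture were not simulated, so these counts do not give the error rate in the data.

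The culture letters pair the libraries, since the Methods describe the same cultures moving through the timeline. Deviations from the sampling means correlated at 0.551 across genes between H-46 and C-28.2 of the same culture, and at 0.031 to 0.318 for the other same-culture pairs. Pairs of different cultures ranged from -0.551 to 0.318, with the highest between H-42 B and H-46 A. Apart from H-46 with C-28.2, same-culture pairs thus did not stand out. In a sampling with 2 libraries the deviations are mirror images, so cultures A and C give the same 0.551 and not separate values.

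The comparison and the gene groups were chosen with earlier results of these data known. Groups were formed by words in product names, and words that had matched unrelated products were corrected after values were seen. The 90 genes named by rule were the 6 largest rises and falls and the 10 largest with a product name (at least 10 counts in each of the 4 libraries, same direction in both cultures), the 2 largest rises, 2 largest falls and 2 most abundant members of each group, the 3 most abundant genes, the 4 leading genes of the difference between shifts and the 3 with the most unequal cultures. Group members in counts of 5 or fewer were added after values were seen, as were Gs10220 and Gs51040. Of the genes, 6510 matched a RefSeq locus tag, used for neighbours only.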

Additional observations from a re-analysis of the deposited data

Results flagged for a closer look

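Gs39590, a gene without a product name, moved in opposite directions in the cold shifts. Its level was lower at 28 °C in cultures B and C in the first shift and higher at 28 °C in cultures A and C in the second, and the difference was 2.34 on the log2 scale. The test of that difference missed the threshold in edgeR (adjusted p = 0.0577) and passed it with culture as a replicate block. No sampling held 4 or more libraries, so no library was tested as standing apart from its group.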

How the results depend on the processing

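With 2 cultures a side, values carry the spread between cultures, and genes with few counts also a large counting error (37 called genes had under 10 counts in a library). The number of called genes (637) was 94 when tested against the 2.5-fold change itself (glmTreat), 141 in the 4 libraries alone and 1109 with no fold minimum. It stayed within 1.5 times under the other alternatives, with 712 in DESeq2, 640 with RLE factors, 709 with culture as a replicate block and 748 with that block in the 4 libraries alone, and ranged from 562 to 823 (without H-46 C) on leaving out 1 library. The blocked fit lost none of the calls of genes named here. Library totals in place of TMM gave 651 calls but moved the median of all tested genes from -0.03 to -0.15 on the log2 scale and the split from 354 higher and 283 lower to 287 higher and 364 lower. The causes of these shifts were not tested.

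The difference between the cold shifts called 0 genes, but 131 in DESeq2, 3 with culture as a replicate block, 1 at adjusted p below 0.05 and 0 to 632 on leaving out 1 library. Genes called in any named group numbered 78, against 16 with glmTreat, 20 in the 4 libraries alone, 122 with no fold minimum, 29 when only members named in the intron tables were counted (an alternative chosen after seeing the data), and 70 to 82 on leaving out 1 library. Of the 90 genes named by rule, 70 were called, against 29 with glmTreat, 32 in the 4 libraries alone and 62 to 66 on leaving out 1 library. Where a library is left out of H-46 or C-28.2, the lone library is assumed to vary like the other samplings.

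Directions reversed only in uncalled genes near no change. Gs57490 (main value -0.0018) was at 0.0071 in DESeq2, 0.0070 with RLE factors, 4.6e-05 without a filter on low counts, 0.0088 in the 4 libraries alone and -0.515 to 0.398 on leaving out 1 library. Over the same omissions Gs07490 ranged from -0.038 to 0.303, Gs36910 from -0.18 to 0.445, Gs41850 from -0.13 to 0.439, Gs45050 from -0.311 to 0.043 and Gs51920 from -0.063 to 0.774.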

Other observations

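Called genes were also compared with their neighbours in the order of locus tags. Of 5909 tested pairs of neighbouring genes, 82 held 2 called genes, of which 29 pairs rose together, 32 fell together and 21 moved in opposite directions. Over all 6264 tested genes, 5.65% rose and 4.52% fell. How many such pairs unrelated genes would give was not computed, so these counts do not show that neighbours move together. Besides the runs described above, the risen pairs included EF-1 alpha (Gs19840) with Gs19850, at 2.56 and 1.38, and ribosomal protein L38e (Gs37250) with threonine 3-dehydrogenase (Gs37260), at 2.66 and 1.62. A run of 3 risen genes held an unnamed gene (Gs34200, 3.68), a mitochondrial adenine nucleotide carrier (Gs34210, 1.42) and 40S ribosomal protein S6e (Gs34220, 2.12). Opposite pairs included 30S ribosomal protein S1 (Gs56500, 3.18) with the myb domain-containing protein Gs56510 (-1.51), and ribosomal protein S15e (Gs49340, 2.05) with the Ras-family GTPase Gs49350 (-1.65). These pairs were picked after their values were seen and carry no test. Overlap between neighbouring genes was not tested.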
